A study of Mus musculus with 2 samples.

Results

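MicroRNAs that are known as markers of muscle, skin, gut, endocrine cells and liver were followed here in the forebrain of newborn mice. The 9 members were chosen by symbol, as rows of both count tables whose Ensembl identifier carries that symbol, out of 1973 microRNA genes. They are the muscle microRNAs Mir206, Mir133b and Mir208b, the skin microRNAs Mir203 and Mir205, and the gut, endocrine and liver microRNAs Mir375, Mir192, Mir194-2 and Mir122. All 9 were in the tables. Small RNA was sequenced from 2 forebrains of strain B6NCrl at postnatal day 0, each a whole forebrain from a separate pup (pup 1 and pup 3). Both belong to 1 group with no treatment or genotype named, both list the same donor record, and no sex is given for either. With 1 group there is no contrast of conditions, and the values below describe levels and how far the pups lay apart.

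A microRNA is cut from a hairpin precursor, and the mature strand guides a silencing complex to messenger RNAs that pair with its seed, bases 2 to 8. Several microRNAs are made at very high levels in a single lineage and at low levels elsewhere. Mir206 and Mir133b are switched on in skeletal muscle by myogenic factors, and Mir208b is made from an intron of the slow myosin gene Myh7 in heart and slow muscle. Mir203 drives keratinocytes out of the cell cycle and Mir205 maintains epithelial progenitors. Mir375 is a microRNA of pancreatic islets and of the pituitary, Mir192 and Mir194-2 are abundant in intestine, liver and kidney, and Mir122 is the dominant microRNA of hepatocytes.

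The mature sequences are shown because the seed sets which relatives each member has, and because sequence shared with another hairpin bears on how its reads were counted. They come from RefSeq (GRCm38.p6), where 8 of the 9 members had a hairpin, are written 5′ to 3′, and have the seed in capitals. The arm shown is the one the microRNA is usually known for. The products miR-375-3p and miR-122 are named only.
miR-206-3p: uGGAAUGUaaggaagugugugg
miR-133b-3p: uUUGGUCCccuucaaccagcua
miR-208b-3p: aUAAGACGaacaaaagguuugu
miR-208a-3p: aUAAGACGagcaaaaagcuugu
miR-203-3p: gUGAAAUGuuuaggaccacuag
miR-205-5p: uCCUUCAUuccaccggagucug
miR-192-5p: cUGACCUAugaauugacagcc
miR-215-5p: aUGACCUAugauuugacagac
miR-194-5p: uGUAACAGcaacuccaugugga
miR-194-2-3p: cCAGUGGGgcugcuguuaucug
miR-194-1-3p: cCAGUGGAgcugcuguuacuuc
No seed is shared between members among those shown. The relatives miR-208a-3p and miR-215-5p carry the seeds of miR-208b-3p and miR-192-5p. Counted from the 5′ end, miR-208a-3p differs from miR-208b-3p at A10G, G16A and U18C, and miR-215-5p differs from miR-192-5p at C1A, A12U and C20A. The seed of miR-206-3p is also that of miR-1, the main microRNA of striated muscle. The sequence of miR-194-5p is whole in a second hairpin, Mir194-1, while the other arms, miR-194-2-3p and miR-194-1-3p, differ from each other at G8A, U19C, C20U and G22C.

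Multimapping reads were tallied apart from the genes and made up 43.0% of all reads in pup 1 and 43.5% in pup 3. The longest stretch that a member hairpin had in common with another annotated hairpin, on either strand, was 22 nucleotides for Mir194-2 (with Mir194-1) and 21 for Mir133b (with Mir133a-1). The other 7 members had no shared stretch of 20 or more, the highest among them being 14 nucleotides. Reads from such stretches of Mir194-2 and Mir133b may be missing from their counts. The search covered 2202 annotated hairpins and not the genome. A hairpin annotated opposite to another at the same place would also count as shared. Each count also pools both arms of a hairpin, so that the arms cannot be compared.

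Pup 1 had 9037087 reads assigned to a microRNA gene and pup 3 had 7678662. Levels are given in CPM, counts per 1000000 of these reads. A read covers a whole mature microRNA, so levels were not divided by hairpin length. With 3 counts as the floor, a count of 0 allows up to 0.332 CPM in pup 1 and 0.391 CPM in pup 3. Detection was set at 10 or more counts in both pups, which 433 of 1973 genes reached (21.9%). Of the 9 members, 8 reached it, and Mir133b did not. Together the 9 took 0.236% of the assigned reads in pup 1 (95% Wilson interval 0.233 to 0.239) and 0.211% in pup 3 (0.207 to 0.214), or 0.223% ± 0.0178 (SD, n = 2). For scale, the neuronal microRNA Mir137 alone stood at 24345 CPM in pup 1 and 33595 CPM in pup 3, and the 9 members together at 2357 and 2106 CPM. In such bulk tissue, a few cells of another type and a low level in many cells cannot be told apart.

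**Figure D1:**
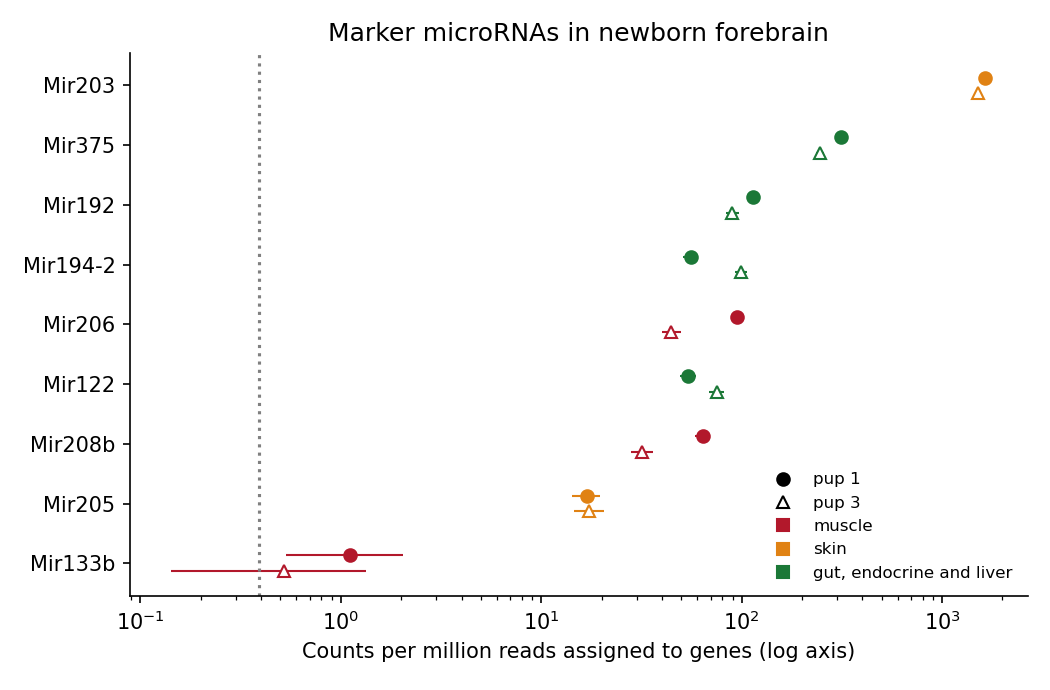
Levels in CPM of the 9 marker microRNAs in each pup, on a log axis, ordered by the mean of the pups; bars are 95% exact Poisson intervals and cover counting error only, and the dotted line is the level of 3 counts in pup 3. Mir203 sits near 1572 CPM, 6 members lie between 31.9 and 314 CPM in both pups, Mir205 lies near 17.1 CPM and Mir133b next to the floor.

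The members covered a wide range of level. Mir203 was the highest at 1572 ± 98.9 CPM, and Mir133b was the lowest at 0.814 ± 0.414 CPM (SD, n = 2). Between them, in falling order of the mean, stood Mir375, Mir192, Mir194-2, Mir206, Mir122, Mir208b and Mir205. Mir203 was above Mir375, Mir375 above Mir192, Mir208b above Mir205 and Mir205 above Mir133b in both pups, with ranges that did not overlap. From Mir192 to Mir208b the order was fixed in part, since each of these 5 overlapped the next over the range of the pups. Mir192 lay wholly above Mir122 and Mir208b. Mir192 was also above Mir206, Mir206 above Mir208b and Mir194-2 above Mir122 in both pups, with overlapping ranges. In pup 1, Mir194-2 (55.5 CPM, 50.8 to 60.6) and Mir122 (54.0 CPM, 49.3 to 59.0) were within counting error of each other. Mir206 was above Mir194-2 and Mir122 in pup 1 and below both in pup 3.

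The skin microRNAs were far apart in level and each was nearly the same in both pups. Mir203 (ENSMUSG00000065574.1) spans 112130880 to 112130955 of chromosome 12, plus strand (GRCm38, the assembly that mm10 names), and overlaps no other annotated gene. It had 14840 reads in pup 1 and 11535 in pup 3, which is 1642 CPM (95% exact Poisson interval 1616 to 1669) and 1502 CPM (1475 to 1530). It ranked 90th of 1973 genes in pup 1 and 87th in pup 3, above 79.2% of the detected genes by mean level. Mir203 alone made up 69.7% and 71.3% of all reads of the 9 members.

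Mir205 (ENSMUSG00000065533.1) overlaps an exon of the lincRNA 4631405K08Rik on the minus strand of chromosome 1 from 193507463 to 193507530. It had 152 and 133 reads, which is 16.8 CPM (14.3 to 19.7) in pup 1 and 17.3 CPM (14.5 to 20.5) in pup 3. These intervals overlapped almost wholly, so no difference between the pups was detectable for Mir205 at this depth. Mir203 was thus 97.6 times as abundant as Mir205 in pup 1 and 86.7 times in pup 3. Mir31, a relative listed as another microRNA of skin and other epithelia, stood at 182 and 139 CPM, between the members.

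The gut, endocrine and liver microRNAs were all detected. Mir375 (ENSMUSG00000065616.2) spans 74900658 to 74900721 of chromosome 1, minus strand, by a later version of its gene record, and overlaps no other annotated gene. It had 2841 and 1883 reads, which is 314 CPM (303 to 326) in pup 1 and 245 CPM (234 to 257) in pup 3. It was lower in pup 3 on this scale by more than counting error, and it ranked 167th and 169th.

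Mir192 (ENSMUSG00000065523.1) and Mir194-2 (ENSMUSG00000065582.1) lie 115 base pairs apart on the plus strand of chromosome 19, Mir194-2 from 6264643 to 6264728 and Mir192 from 6264844 to 6264932. Neither overlaps another annotated gene. Mir192 had 1034 reads (114 CPM, 108 to 122) in pup 1 and 689 (89.7 CPM, 83.2 to 96.7) in pup 3. Mir194-2 had 502 reads (55.5 CPM, 50.8 to 60.6) in pup 1 and 763 (99.4 CPM, 92.4 to 107) in pup 3. Pup 3 was thus the lower library for Mir192 and the higher one for its neighbour.

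Mir122 (ENSMUSG00000065402.1), on chromosome 18, overlaps an exon of the lincRNA AC157910.3. It had 488 reads (54.0 CPM, 49.3 to 59.0) in pup 1 and 576 (75.0 CPM, 69.0 to 81.4) in pup 3. It was the higher in pup 3, as Mir194-2 was.

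Of the 7 relatives from gut, pancreas and liver, 6 were detected. Mir483, which lies within the imprinted growth factor gene Igf2, was the highest at 155 CPM in pup 1 and 122 CPM in pup 3. The pancreatic acinar microRNAs Mir217, Mir216b and Mir216a stood at 46.6, 20.1 and 11.2 CPM in pup 1 and at 40.9, 7.94 and 6.77 CPM in pup 3. By the search of either strand, 69 nucleotides of the Mir216b hairpin are also in Mir216c. What part this has in the count of Mir216b was not tested. Mir215, of the seed of Mir192, had 16 and 11 reads, and Mir194-1, its neighbour on chromosome 1, had 10 and 13. Mir802, a microRNA of liver and islets, had 4 and 8 reads and was not detected by the rule above. Mir192 therefore stood far above Mir215 in both pups. Mir194-2 had more counted reads than Mir194-1, but the hairpins share 22 nucleotides, and miR-194-5p is whole in both. Reads from this stretch may be missing from both counts, so the levels of Mir194-2 and Mir194-1 cannot be compared by them.

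Of the muscle microRNAs, Mir206 and Mir208b were lower in pup 3 than in pup 1 with intervals that did not overlap, and Mir133b was next to the floor. Mir206 (ENSMUSG00000065559.1) and Mir133b (ENSMUSG00000065480.1) lie 3686 base pairs apart on chromosome 1, plus strand, at 20679010 to 20679082 and 20682769 to 20682887, and both overlap exons of the lincRNA Gm28653. Mir206 had 857 reads (94.8 CPM, 88.6 to 101) in pup 1 and 342 (44.5 CPM, 39.9 to 49.5) in pup 3. Mir133b had 10 reads (1.11 CPM, 0.531 to 2.03) and 4 reads (0.521 CPM, 0.142 to 1.33), so the intervals of the pups overlapped and no difference was detectable at this depth. Reads of Mir206 outnumbered those of its neighbour 85.7 to 1 in pup 1 and 85.5 to 1 in pup 3. With 10 and 4 reads of Mir133b these ratios are imprecise. The share of Mir206 in the reads of the pair had 95% Wilson intervals of 97.9% to 99.4% in pup 1 and 97.1% to 99.5% in pup 3. Of the pair, Mir133b is the one with a shared stretch, and what part this has in its low count was not tested.

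Mir208b (ENSMUSG00000077928.1) lies in an intron of Myh7 on the minus strand of chromosome 14 from 54975700 to 54975776. It had 577 reads (63.8 CPM, 58.7 to 69.3) in pup 1 and 245 (31.9 CPM, 28.0 to 36.2) in pup 3. Its relative Mir208a, in an intron of the cardiac myosin gene Myh6, had 88 and 28 reads (9.74 and 3.65 CPM), so that Mir208b had 6.56 times the reads of Mir208a in pup 1 and 8.75 times in pup 3. Mir499, in an intron of the myosin gene Myh7b, had 62 and 29 reads (6.86 and 3.78 CPM). Of the 6 muscle relatives 5 were in the tables, and the other 3, Mir1a-1, Mir133a-1 and Mir133a-2, were at 0 in both pups. Each of these 3 shares 28 or 31 nucleotides with a second hairpin of the same family, so their count of 0 does not bound the mature microRNA. These relatives include the best known microRNAs of striated muscle, and they cannot be read from these counts.

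To set the pups side by side, 0.5 was added to each count and pup 3 was divided by pup 1 after scaling by edgeR's TMM factors, for the 460 genes whose counts summed to at least 20. Each pup is 1 library, so no p-value is given, and a gene was called when the ratio was at least 2-fold in either direction. By this rule 68 of the 460 genes were called (14.8%), 36 higher in pup 3 (7.83%) and 32 lower (6.96%). Among the 8 members in this range 1 was called, Mir194-2, which was higher. This share is near that of all genes. The median log2 ratio of the 8 members was -0.04, against -0.02 for all 460 genes, and 4 members were below 0, where 51.3% of all genes were.

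**Figure D2:**
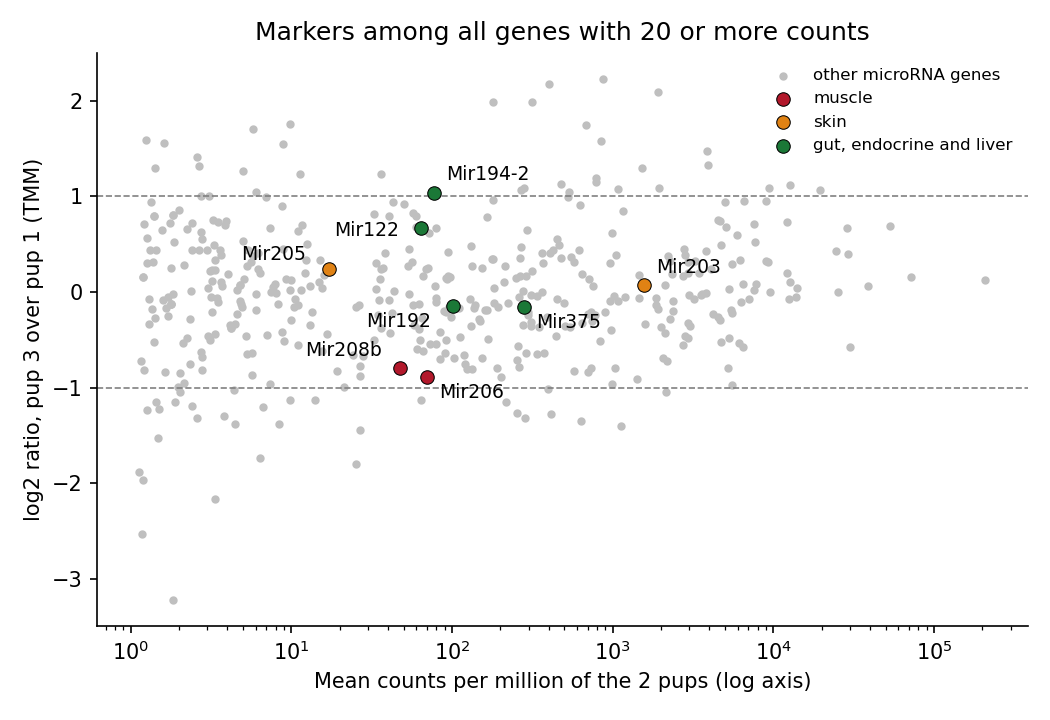
Mean level (CPM, log axis) against the log2 ratio of pup 3 over pup 1 (TMM) for 460 genes with at least 20 counts over both pups; dashed lines mark 2-fold. The 8 marker microRNAs in this range lie within the cloud of other genes, with Mir194-2 just above the upper line and Mir206 and Mir208b just inside the lower one.

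The muscle members lay on the low side of this spread. Mir206 had a log2 ratio of -0.89 (95% exact conditional binomial interval -1.08 to -0.71, counting error only), a fold of 0.540. Mir208b had -0.80 (-1.02 to -0.58), a fold of 0.575. Both lay below the great majority of genes, with 8.70% and 11.3% of the 460 genes lower still. The muscle relatives Mir208a and Mir499 had -1.20 (-1.89 to -0.59) and -0.65 (-1.35 to -0.003). All 4 striated muscle hairpins with enough reads thus lay below 0, where 51.3% of the 460 genes were. Of these 4, Mir208a was called as lower, as 6.96% of the 460 genes were.

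Mir194-2 had a log2 ratio of 1.04 (0.88 to 1.20), a fold of 2.05, and Mir122 of 0.67 (0.50 to 0.85), a fold of 1.60. Mir375 and Mir192 were close to each other at -0.16 (-0.24 to -0.07) and -0.15 (-0.29 to -0.01). The ratio of Mir192 to Mir375 within a library, which no scaling enters, was 0.364 in pup 1 and 0.366 in pup 3. Mir203 had 0.07 (0.04 to 0.11) and Mir205 had 0.24 (-0.10 to 0.59).

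The scaling decided which member was called. With total counts in place of TMM the median of all 460 genes moved from -0.02 to -0.22, Mir206 was called at -1.09, Mir194-2 no longer was at 0.84, and Mir203 turned to -0.13. Under that scaling 15.9% of genes were called, 11.3% lower and 4.57% higher, and 5 of the 8 members were below 0, where 64.3% of genes were. Ratios between members of 1 library are free of this choice. Reads of Mir122 were 0.569 of those of Mir206 in pup 1 and 1.68 times as many in pup 3, and reads of Mir203 were 17.3 and 33.7 times those of Mir206. Reads of Mir206 were 1.49 times those of Mir208b in pup 1 and 1.40 times in pup 3.

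**Figure D3:**
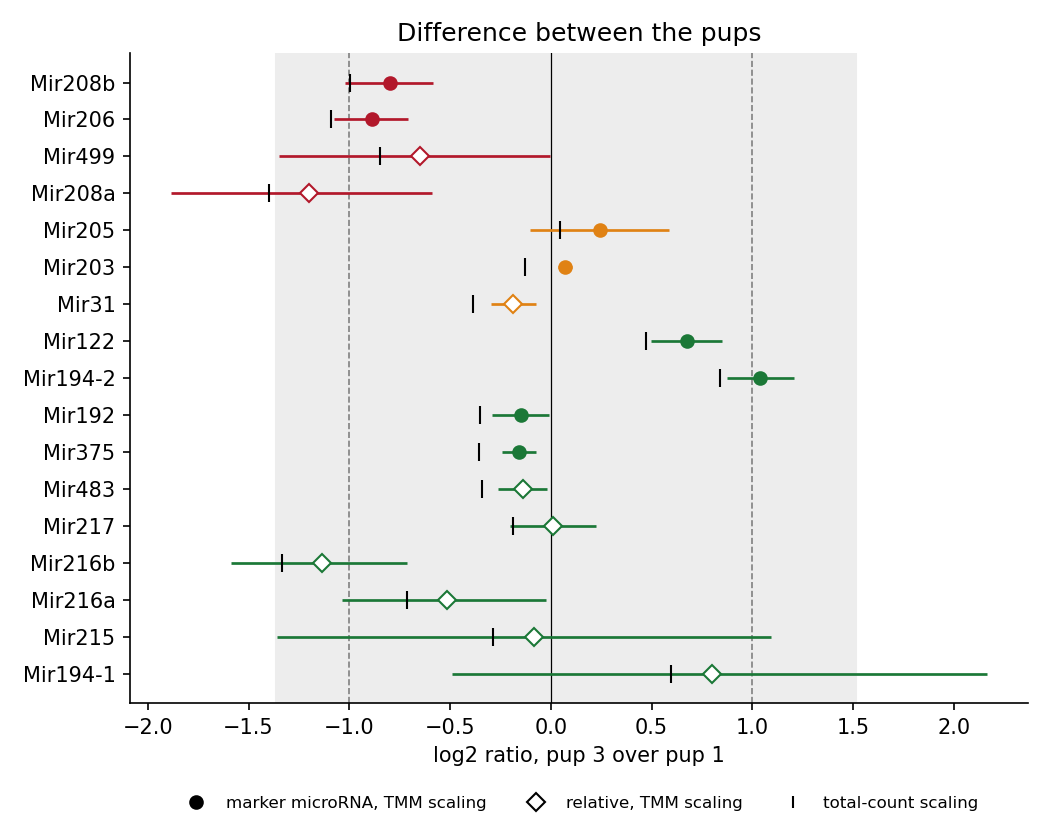
The log2 ratio of pup 3 over pup 1 for the 8 marker microRNAs (filled circles) and their relatives (open diamonds) with at least 20 counts over both pups, by TMM scaling with 95% exact binomial intervals (counting error only); vertical ticks give total-count scaling, dashed lines mark 2-fold, and the grey band holds the middle 95% of 460 genes. The 4 muscle hairpins lie at -0.65 to -1.20, while Mir122 and Mir194-2 lie at 0.67 and 1.04.

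The pair of Mir192 and Mir194-2 differed between pups although the hairpins are neighbours. Mir194-2 held 32.7% of the reads of the pair in pup 1 (95% Wilson interval 30.4 to 35.1) and 52.5% in pup 3 (49.98 to 55.1). The log2 ratios of the pair differed by 1.19, and this difference does not depend on the scaling. A comparison among neighbours was chosen after this was seen. It took the 107 pairs of successive hairpins on 1 strand within 10000 base pairs whose members both had 20 or more counts. The pair of Mir192 and Mir194-2 is among the 107. The median difference of these pairs was 0.48, and 16 pairs, this one included, differed by 1 or more (15%). The pair was above 89.7% of these pairs, and pairs in a cluster of several hairpins are not independent. In the second copy of this cluster, Mir194-1 held 38.5% (22.4 to 57.5) of the reads of the pair with Mir215 in pup 1 and 54.2% (35.1 to 72.1) in pup 3, a difference within counting error. Because miR-194-5p is the same from both copies, reads that match it exactly map to several places. What the counted reads of Mir194-2 are was not tested.

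**Figure D4:**
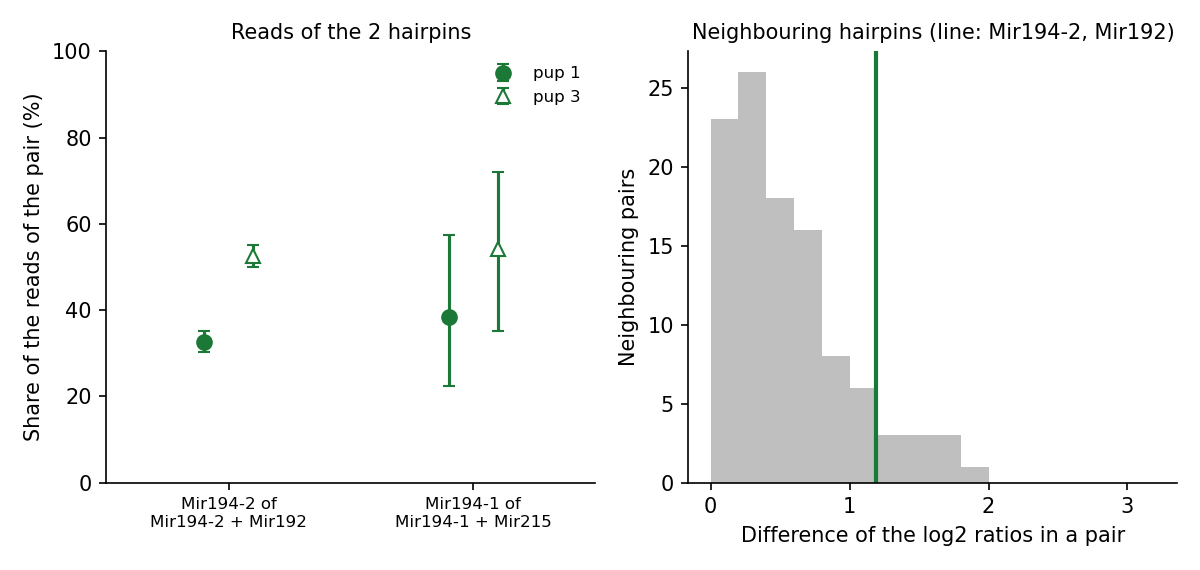
Left, the share of Mir194-2 in the reads of Mir194-2 and Mir192, and of Mir194-1 in those of Mir194-1 and Mir215, in each pup with 95% Wilson intervals; right, the difference between the log2 ratios of neighbouring hairpins for 107 pairs, with the pair of Mir194-2 and Mir192 as a line. The share of Mir194-2 was 32.7% in pup 1 and 52.5% in pup 3, and the line stands at 1.19, in the upper tail.

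The markers of the labelled tissue were uneven. The 11 neuronal microRNAs in the tables summed to 35704 CPM in pup 1 and 47785 CPM in pup 3, led by Mir137 and Mir128-1. Endothelial Mir126a stood at 40491 and 36865 CPM. It shares 58 nucleotides with the hairpin Mir126b by the search of either strand. On the opposite strand lay 7 of its 365921 reads in pup 1 and 6 of 283076 in pup 3. What part the shared stretch has in the count of Mir126a was not tested. Within the neuronal list Mir124a-1 had 4.98 and 14.7 CPM, Mir124a-2 2.21 and 0.781, Mir124a-3 2.21 and 2.60, and Mir9-2 1.33 and 1.56, below Mir205 and the 7 members above it. Of the 11, 9 share 20 or more nucleotides with another hairpin, these 4 among them, so their low counts do not bound the mature microRNAs. Mir137 has no such stretch. Among the others of the list, Mir9-3 stood at 382 and 684 CPM. Mir9-1 had no row of that symbol. The hairpin Gm25641, which shares 33 nucleotides with Mir9-2, had 87.4 and 102 CPM, all on the strand opposite to it. It is not in the neuronal sum. The testis list, chosen as microRNAs not expected in brain, summed to 3.32 and 4.30 CPM over 12 hairpins, led by Mir741, and 1 of the 12 was detected. Of the 4 at 0 in both pups 1 has a shared stretch, Mir465, whose count of 0 is no bound either. Of the members, Mir133b was the only one below the summed level of this list.

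Lists of other cell types also differed between the pups, and their part in the members' values was not tested. By sum, the muscle members stood at 160 and 77.0 CPM (log2 ratio -0.85, -0.99 to -0.71) and the muscle relatives at 16.6 and 7.42 CPM. The list of posterior tissue, whose microRNAs lie in the Hox clusters, summed to 196 and 148 CPM. Of its 6 hairpins 4 were detected, where 21.9% of all genes were. Mir196a-1 was at 0 but shares 22 nucleotides with Mir196a-2, so its count of 0 is no bound. Of the 5 with enough reads 4 were below 0 in log2 ratio, where 51.3% of the 460 genes were. The leaders of this list were Mir10b, at 96.2 and 94.3 CPM, and Mir10a, at 83.9 and 47.5 CPM. The erythroid list, Mir451a and Mir144, summed to 228 and 370 CPM, but its 2 members went opposite ways (log2 ratio 1.07 and -0.67). Mir451a shares 72 nucleotides with the hairpin Mir451b by the search of either strand. It had 1735 reads in pup 1 and 2689 in pup 3, all in the sense column. What part the shared stretch has in the count of Mir451a was not tested. The leukocyte list summed to 326 and 363 CPM over 2 of 3 hairpins, Mir150 and Mir223. The other, Mir142, had no row of that symbol. The entry Mir142b had 2246 reads in pup 1 and 2607 in pup 3 (249 and 340 CPM), all on the strand opposite to it. These reads are not in the sum.

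The general epithelial microRNAs stood further apart between the pups than the skin members. The 5 epithelial hairpins, led by Mir429 and Mir200b, summed to 3685 CPM in pup 1 and 10499 CPM in pup 3 (log2 ratio 1.71). All 5 were at least 2-fold higher, where 7.83% of the 460 genes were. Mir429, Mir200a and Mir200b are neighbours, as are Mir141 and Mir200c, so the 5 are not independent. The skin members summed to 1659 and 1520 CPM (log2 ratio 0.07, 0.04 to 0.11). The sensory and pineal list, led by Mir182 and Mir183, summed to 813 and 2512 CPM, and the list of pituitary and neuroendocrine microRNAs, led by Mir7b and Mir7a-1, to 3760 and 4025 CPM. In the latter Mir7b and Mir7a-1 had log2 ratios of 0.39 and 0.44, and Mir7a-2 had -0.46. Mir7a-1 and Mir7a-2 share 24 nucleotides, so reads from this stretch may be missing from their counts. The gut, endocrine and liver members summed to 538 and 509 CPM.

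**Figure D5:**
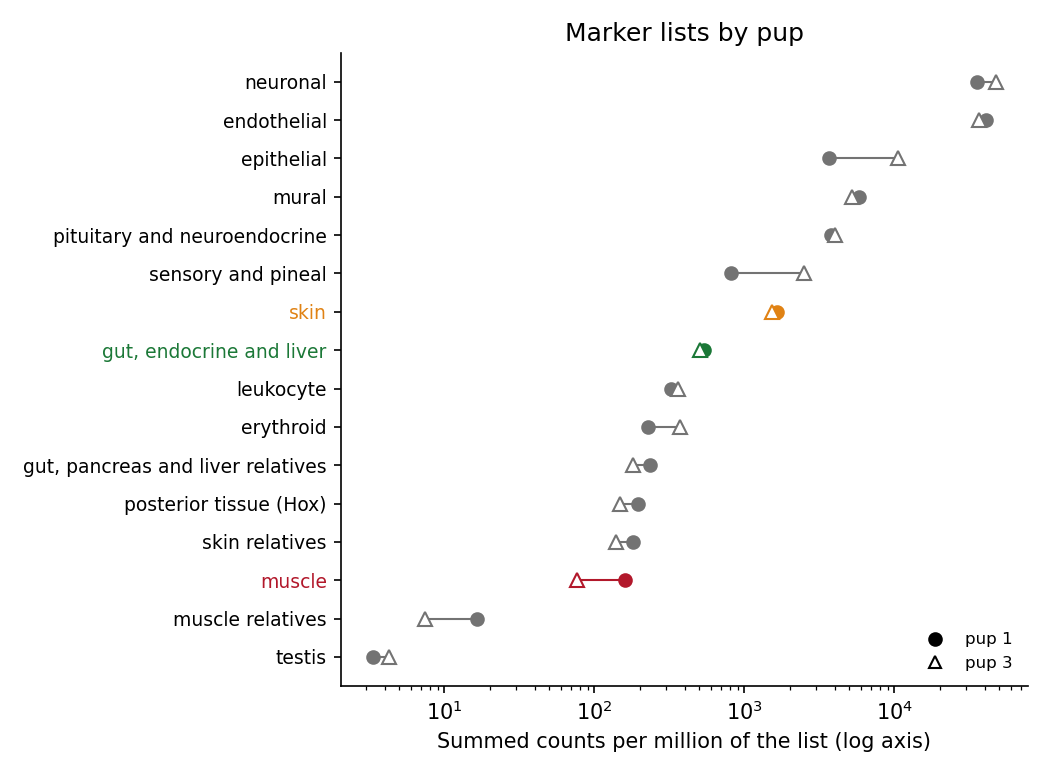
Summed CPM of each list in pup 1 (filled circles) and pup 3 (open triangles), on a log axis, with the 3 groups of marker microRNAs in colour. The muscle sum goes from 160 to 77.0 CPM, the skin and the gut, endocrine and liver sums differ little, and the epithelial sum goes from 3685 to 10499 CPM.

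The gene outside the members with the most similar levels in both pups was found for the 8 members whose mean reached 10 CPM, by distance in log2(CPM + 1). With 2 libraries such a match describes level and direction only. Mir10a, of a Hox cluster, was nearest to Mir206 (83.9 and 47.5 CPM, distance 0.198), and Mir24-2 was nearest to Mir192 (110 and 85.3 CPM, distance 0.0907). Mir701 was nearest to Mir375 (distance 0.122), Mir218-1 to Mir205 (0.130), Mir539 to Mir122 (0.157), Mir188 to Mir203 (0.175), Mir301b to Mir194-2 (0.284) and Mir582 to Mir208b (0.341).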

How the data were processed

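The members and the lists were chosen with earlier results of these data known. The authors deposited raw counts, whole numbers for each microRNA gene, on mm10 with annotation M4 per the notes deposited with the tables. The sources used here name no aligner, counter or setting. Each table has 3 count columns and no heading. In all 1973 genes the first equals the sum of the others, read as sense and opposite strand, and the first was used. Tallies that name no gene took 59.8% of reads in pup 1 and 59.2% in pup 3 and stayed out of all totals. Symbols, positions and hosts came from GENCODE M21 by gene identifier (1894 of 1973 matched).

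CPM, ratios, intervals and list sums were computed from these counts. TMM factors (1.07 for pup 1, 0.933 for pup 3) came from edgeR 4.0.16; no model was fitted, since 1 group has no contrast. Alternatives were DESeq2 1.42.0 size factors, total counts, the sense column, other minimums, denominators and single pups. The ratio, its interval and the search for shared stretches were tested on simulated data. Intervals cover counting error only, and repeated reads of a molecule could make them too narrow. All 9 members, their relatives, the up to 2 highest genes of each list and the nearest gene by level were named by rule; any other gene was picked with its values in view. Mir7a-1 is annotated as Mir7-1. Computation used Python 3.11.15 (matplotlib 3.10.9, pandas 2.3.3, scipy 1.17.1, numpy 2.4.6) and R 4.3.3.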

Additional observations from a re-analysis of the deposited data

Results flagged for a closer look

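Reads on the strand opposite to Mir203 were found in both pups, 153 in pup 1 and 151 in pup 3, above the 3 counts that a count of 0 allows. They made up 1.03% (95% Wilson interval 0.881 to 1.21) and 1.31% (1.12 to 1.53) of the reads counted at Mir203. Mir205 had 1 such read in each pup and the other 7 members had none. Their source was not tested.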

How the results depend on the processing

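Of 53 ratios of single members recomputed, 50 kept their direction and their side of 2-fold. The exceptions came under total counts, where Mir203 had -0.13, Mir206 -1.09 and Mir194-2 0.84, and the median of the members moved from -0.04 to -0.24. The scaling enters every gene alike. The number of members called was 1 under each alternative, but under total counts it was Mir206 in place of Mir194-2. Of all genes, 68 were called, and 243 with no filter beyond 1 count and 42 with a total of 100 or more, where more or fewer genes enter. Over all reads of the library the summed share was 0.0904% for the 9 members, 0.00478% for muscle, 0.0644% for skin and 0.0212% for gut, endocrine and liver. Without the most abundant gene in the denominator it was 0.282% for the 9, 0.201% for skin and 0.0662% for gut, endocrine and liver. With each pup alone the shares ran from 0.211% to 0.236%, 0.00770% to 0.0160%, 0.152% to 0.166% and 0.0509% to 0.0538%. Detected members numbered 9 at a minimum of 1 count and 8 at 5, 50 or in the sense column. With 10 and 4 reads, Mir133b allows no difference between the pups to be detected. No paired analysis was possible because the samples form 1 group.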
